A study of Rattus norvegicus with 6 samples.

Results

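Transcripts of 8 neurotrophic and axon guidance genes were measured in rat tail discs. They comprised the secreted ligands Bdnf, Ntf3, Gdnf and Artn, the receptors Ntrk2 and Ngfr, and the guidance cues Sema3a and Ntn1. The genes were chosen by name for their roles in nerve supply and pain in the disc, with earlier results of these data known. They are 8 of the 30562 genes of the deposited count table.

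Neurotrophins and the ligands of the GDNF family are secreted proteins that keep sensory and sympathetic neurons alive and draw out their axons. Neurotrophins bind Trk receptor tyrosine kinases and the shared p75 receptor encoded by Ngfr, whereas GDNF family ligands bind a GFRα co-receptor that engages the kinase RET. Semaphorin 3A repels axons through neuropilin 1 and A-type plexins, and netrin 1 attracts or repels them through DCC and UNC5 receptors. The healthy inner disc is almost without nerves, and ingrowth of nociceptive fibers into the outer annulus and along fissures is known from painful degenerated discs.

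The study punctured a tail disc of male Sprague–Dawley rats, aged 12 weeks, with an 18 G needle and treated it for 8 weeks by injection into the disc, beginning 24 h after surgery. Discs of the control group received phosphate-buffered saline (PBS), and those of the other group received 10 μL of AF-PTK@LEV@SPP1, with 3 libraries from separate animals in each group. AF-PTK@LEV@SPP1 is a liposome fused with detoxified bacterial outer membrane vesicles, which is equipped with a peptide for the annulus fibrosus (AF), held by a linker that reactive oxygen species cut, and delivers 1 mg/kg of an siRNA against Spp1, the gene of osteopontin. All animals were wild type and had the punctured disc, and a group of unpunctured discs was not used here. The sample records differ from this account, since they name an untreated control, 14 days of treatment and macrophages sorted from digested discs of mice. The cartilage collagen gene Col2a1 stood at 13873 to 31980 normalized CPM, counts scaled to library size, across the 6 libraries and the macrophage gene Lyz2 at 272 to 1833, so that transcripts of disc matrix cells were abundant in each of them.

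Total counts were 17942989, 16565291 and 17489851 in PBS and, in the AF-PTK@LEV@SPP1-labelled libraries, 17074981, 15560728 and 17855184. A gene with 3 counts, the smallest level taken as measured, stood at 0.154 to 0.193 normalized CPM, which covers counting error alone. Spp1, the siRNA target, had 8123, 4411 and 4417 normalized CPM in PBS and 8054, 6903 and 8461 in the AF-PTK@LEV@SPP1-labelled libraries. Its log2 fold change was 0.47 (standard error, SE, 0.31; edgeR's quasi-likelihood test, adjusted p = 0.317), with the counts of PBS replicates 2 and 3 summed 0.31 (edgeR adjusted p = 0.628), and without PBS replicate 1 0.82, where the PBS arm is 1 near-identical pair (adjusted p from 0.0322 to 0.633 over the alternatives). The siRNA target was therefore not lower under the treated label, and every direction below refers to the labels.

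PBS replicates 2 and 3 stood apart from the other libraries by their likeness. Over 14393 genes the counts of the pair varied 1.33 times as much as counting noise, and 16 genes (0.111%) differed, whereas the remaining 5 within-group pairs had ratios of 51.3 to 107. The pair was therefore counted as 1 sample in each mean ± SD and in each exact permutation test, which left n = 2 distinct PBS samples against n = 3. With these numbers a two-sided exact permutation test cannot give a p below 0.1. The test across all genes used the 6 libraries, and the calls of single genes are given beside their values with the counts of the pair summed.

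Among the 8 genes, edgeR on the 6 libraries called Ntf3 and Sema3a higher and Bdnf lower in the AF-PTK@LEV@SPP1-labelled libraries. Gdnf, Artn, Ntrk2, Ngfr and Ntn1 were not called, and with PBS replicates 2 and 3 summed none of the 8 was. All 8 passed the filter on low counts, Bdnf through PBS alone and Ntf3 through the AF-PTK@LEV@SPP1-labelled libraries alone, the groups where they are high. Of the 8, 2 were called higher and 1 lower at an adjusted p under 0.05 in edgeR's quasi-likelihood test, where 8.20% and 9.93% of the 15042 genes tested were called higher and lower. With PBS replicates 2 and 3 summed, edgeR called 0 of the 8, against 1.13% of 15537 genes higher and 2.57% lower, and at an unadjusted p under 0.05 it found 2 higher and 1 lower, beside 12.4% and 13.0% of those genes. By DESeq2 on the 6 libraries 2 were higher and 1 lower (8.37% and 9.45% of 22083 genes with a p-value). By limma-voom 2 were higher and 0 lower, beside 7.53% and 9.29% of 15042 genes. Normalized CPM did not overlap between the groups for Ntf3, Sema3a and Ntn1, all higher, as for 21.6% of the genes tested, and for Bdnf and Artn, both lower, as for 20.7%. With RLE scaling 4 of the 8 did not overlap, against 5 here. RLE, upper-quartile and library-size scaling moved the log2 fold changes of all genes tested by a median of -0.0203, 0.0352 and 0.0408. The smallest log2 fold change of the 8 genes was larger (0.16, Ngfr), so that their unchanged directions are no test.

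**Figure D1:**
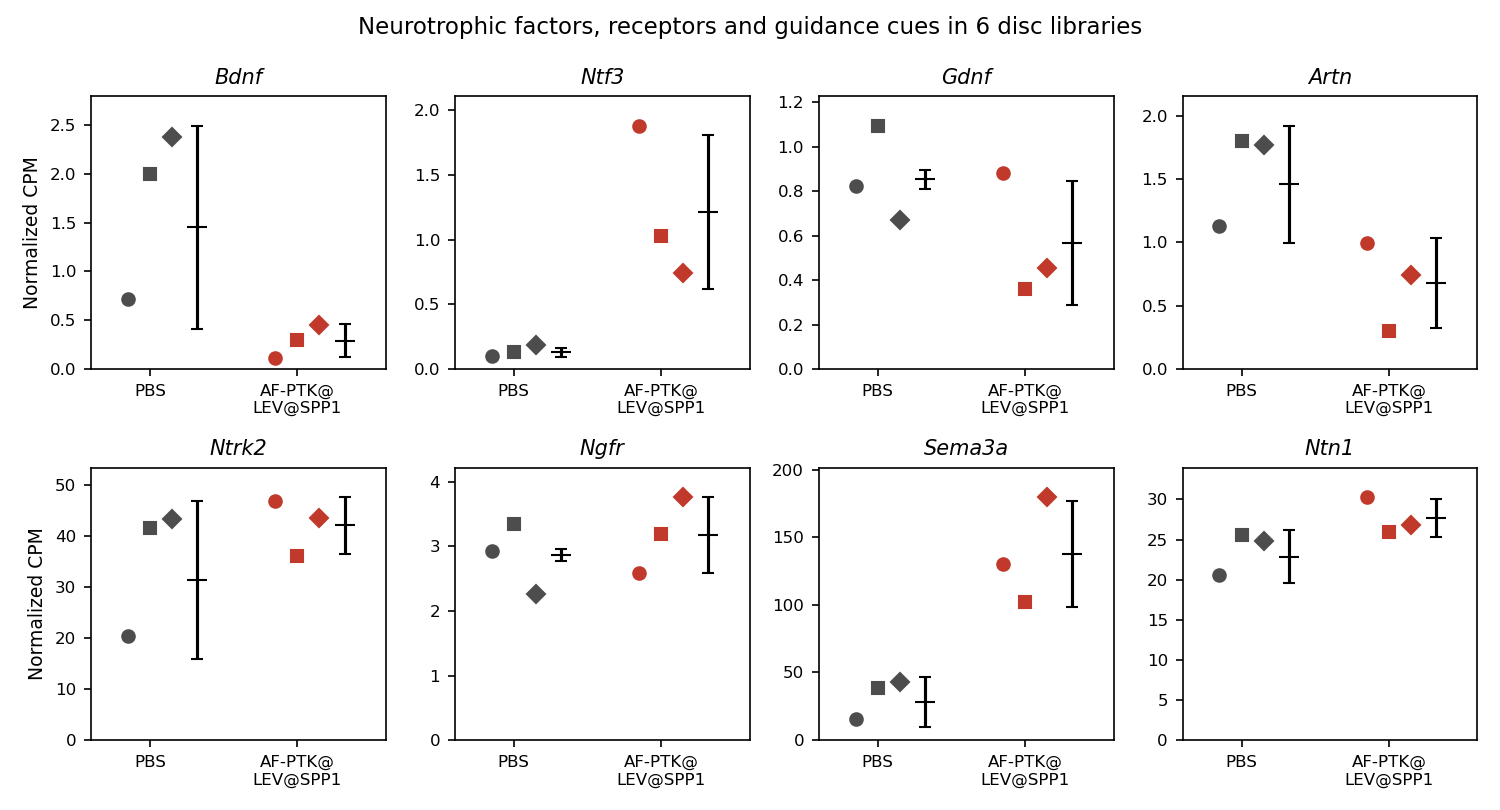
Normalized CPM of the 8 genes (vertical axes, linear from 0) in each of the 3 PBS libraries and the 3 AF-PTK@LEV@SPP1-labelled libraries, with replicates 1, 2 and 3 as circle, square and diamond; bars give the mean ± SD with PBS replicates 2 and 3 averaged as 1 sample. Bdnf is lower, and Ntf3 and Sema3a are higher, in each of the 3 AF-PTK@LEV@SPP1-labelled libraries than in any PBS library.

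Bdnf encodes brain-derived neurotrophic factor, the ligand of TrkB, which sensitizes pain pathways. It lies on chromosome 3 from 96165042 to 96215615, plus strand (ENSRNOG00000047466), in the coordinates of the deposited table, whose rat genome build is not named. In PBS replicates 1, 2 and 3 it had 0.719, 1.99 and 2.38 normalized CPM, from 14, 31 and 39 counts. The AF-PTK@LEV@SPP1-labelled libraries had 0.118, 0.302 and 0.456, from 2, 5 and 8 counts. Every PBS library thus lay above every library of the other group, and PBS replicate 1 lay nearest to them. The mean was 1.45 ± 1.04 in PBS (SD, n = 2 distinct samples) and 0.292 ± 0.169 in the AF-PTK@LEV@SPP1-labelled libraries (SD, n = 3; two-sided exact permutation test, p = 0.1). The fitted log2 fold change was -2.50 (SE 0.64, edgeR adjusted p = 0.0443), close to the threshold, and without the filter it was -2.54 (edgeR adjusted p = 0.0479). The call was lost with the PBS pair summed (log2 fold change -2.32, edgeR adjusted p = 0.138). It was also lost without PBS replicate 2 or 3 (edgeR adjusted p = 0.143 and 0.148) and without AF-PTK@LEV@SPP1 replicate 1, 2 or 3 (0.0770, 0.110 and 0.0851), with a range of 0.00651 to 0.148 over 15 alternatives. By limma-voom the call was lost as well (limma-voom adjusted p = 0.0797).

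Ntf3 encodes neurotrophin 3, the main ligand of TrkC, which supports proprioceptive and some sympathetic neurons. The gene lies on chromosome 4 from 158914957 to 158984596, minus strand (ENSRNOG00000019716). It was counted 2, 2 and 3 times in the PBS libraries (0.103, 0.129 and 0.183 normalized CPM), all at or under the floor of 3 counts. In the AF-PTK@LEV@SPP1-labelled libraries it was counted 32, 17 and 13 times (1.88, 1.03 and 0.741 normalized CPM). The groups did not overlap, and the spread was wider where the transcript was higher. The means were 0.129 ± 0.0376 (SD, n = 2 distinct samples) and 1.22 ± 0.594 (SD, n = 3; two-sided exact permutation test, p = 0.2). Over the summed counts of 7 and 62 the ratio was 8.90, with a 95% Clopper-Pearson interval of 4.07 to 23.1 that covers counting error only. The fitted log2 fold change was 3.08 (SE 0.53, edgeR adjusted p = 0.0153), and with the PBS pair summed it was 3.12 (edgeR adjusted p = 0.0686). Without the filter the log2 fold change was 3.04 (edgeR adjusted p = 0.0191). Leaving out PBS replicate 2 or 3 also ended the call (edgeR adjusted p = 0.0795 and 0.0672, from 0.00195 to 0.0795 over 15 alternatives). The log2 fold changes of Bdnf and Ntf3 thus had opposite signs, both at low levels, and neither call held with the PBS pair summed.

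Gdnf, the founding ligand of its family, acts through GFRα1 and RET (chromosome 2 from 56895010 to 56917209, plus strand, ENSRNOG00000012819). It had 0.822, 1.09 and 0.672 normalized CPM in PBS and 0.882, 0.362 and 0.456 in the AF-PTK@LEV@SPP1-labelled libraries. The groups overlapped, since AF-PTK@LEV@SPP1 replicate 1 lay among the PBS libraries. The log2 fold change was -0.60 (SE 0.44, edgeR adjusted p = 0.362). With 6 to 17 counts a library, the 95% counting interval of the ratio, 0.400 to 1.08, included 1, so counting error alone covered the difference. With 1 library left out the log2 fold change of Gdnf ranged from -1.09 to -0.36. Artn encodes artemin, the ligand of GFRα3 on nociceptors (chromosome 5 from 131464756 to 131468025, minus strand, ENSRNOG00000019842). It had 1.13, 1.80 and 1.77 normalized CPM in PBS, and 1.00, 0.302 and 0.741 in the AF-PTK@LEV@SPP1-labelled libraries. All 3 of the latter lay below PBS, by a narrow margin between replicate 1 of either group. The log2 fold change of -1.19 (SE 0.47, edgeR adjusted p = 0.124) did not pass, and the two-sided exact permutation p was 0.2.

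Ntrk2 encodes TrkB, the receptor of BDNF (chromosome 17 from 5559043 to 5869136, minus strand, ENSRNOG00000018839). It had 20.5, 41.6 and 43.2 normalized CPM in PBS and 46.9, 36.0 and 43.4 in the AF-PTK@LEV@SPP1-labelled libraries. PBS replicate 1 was the lowest of the 6, and the other 5 libraries were intermingled. The log2 fold change of 0.26 (SE 0.29, edgeR adjusted p = 0.537) rested on that library and was -0.013 without it (adjusted p = 0.951, from 0.365 to 0.951 over 16 alternatives). Ngfr encodes the p75 receptor, which binds every neurotrophin and their precursors (chromosome 10 from 80515299 to 80533518, minus strand, ENSRNOG00000005392). Its normalized CPM were 2.93, 3.35 and 2.26 in PBS and 2.59, 3.20 and 3.76 in the AF-PTK@LEV@SPP1-labelled libraries, with overlap. Its log2 fold change was 0.16 (SE 0.25, edgeR adjusted p = 0.672).

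Sema3a had the most counts of the 3 genes called. It encodes semaphorin 3A, a secreted repellent of sensory axons that also acts on endothelial and skeletal cells, and lies on chromosome 4 from 21287982 to 21494432, minus strand (ENSRNOG00000023337). Normalized CPM were 15.4, 38.9 and 43.2 in PBS, from 299, 604 and 707 counts. In the AF-PTK@LEV@SPP1-labelled libraries they were 130.4, 102 and 179.9, from 2218, 1694 and 3157 counts. The lowest of these lay well above the highest PBS library, and within PBS replicate 1 was less than the near-identical pair. The mean was 28.2 ± 18.1 in PBS (SD, n = 2 distinct samples) and 138 ± 39.3 in the AF-PTK@LEV@SPP1-labelled libraries (SD, n = 3; two-sided exact permutation test, p = 0.1), a ratio of 4.88. Sema3a had a log2 fold change of 2.08 (SE 0.42, edgeR adjusted p = 0.0235). With the PBS pair summed it was 2.27 and the call was lost (edgeR adjusted p = 0.0774), as it was without PBS replicate 2 or 3 or AF-PTK@LEV@SPP1 replicate 3 (adjusted p = 0.0836, 0.0682 and 0.0747, from 1.14e-05 to 0.0836 over 16 alternatives).

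Ntn1 encodes netrin 1, a laminin-related cue that also acts on vessels and macrophages (chromosome 10 from 52899934 to 53085326, minus strand, ENSRNOG00000003947). It had 20.5, 25.5 and 24.8 normalized CPM in PBS and 30.3, 25.9 and 26.8 in the AF-PTK@LEV@SPP1-labelled libraries. The groups did not overlap, but the margin between 25.5 and 25.9 was small beside the spread within each group. The log2 fold change was 0.23 (SE 0.12, edgeR adjusted p = 0.224; two-sided exact permutation test, p = 0.1). None of the 8 annotated spans overlaps that of another gene in the table.

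Other ligands of the families were read in the same libraries. Nrtn, neurturin, is the ligand of GFRα2. It had 1.03, 0.965 and 1.28 normalized CPM in PBS and 3.70, 2.90 and 4.62 in the AF-PTK@LEV@SPP1-labelled libraries, without overlap. This gave a log2 fold change of 1.77 (SE 0.28, edgeR adjusted p = 0.0118), and with the pair summed the adjusted p was 0.0558. Pspn, persephin, overlaps Gtf2f1 on the same strand and was not called (log2 fold change 0.47, edgeR adjusted p = 0.376). Ntf4, neurotrophin 4, had 2 to 9 counts a library and did not pass the filter.

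On the receptor side, Sorcs2 fell and Ret rose. Sorcs2 encodes a sorting receptor that pairs with p75 for precursor neurotrophins. Its normalized CPM were 24.04, 46.8 and 48.1 in PBS and 3.88, 4.28 and 4.50 in the AF-PTK@LEV@SPP1-labelled libraries, the latter close together. The log2 fold change of -3.23 (SE 0.30, edgeR adjusted p = 0.00306) was called in each of 16 alternatives, and the adjusted p with the pair summed was 0.0221. Its span overlaps Psapl1 on the other strand, and whether the counting used strand is not stated. Ret encodes the signaling kinase of the GDNF family. It had 6.37, 9.33 and 9.04 normalized CPM in PBS and 35.2, 19.7 and 26.6 in the AF-PTK@LEV@SPP1-labelled libraries, without overlap. Ret thus had a log2 fold change of 1.72 (SE 0.26, edgeR adjusted p = 0.0106; 0.0517 with the pair summed).

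Smaller differences were found for Sort1, which encodes the sorting receptor sortilin, and for Ncam1, an adhesion molecule that can serve GDNF as a receptor. Sort1 had 108, 83.1 and 84.1 normalized CPM in PBS and 131, 162 and 142 in the AF-PTK@LEV@SPP1-labelled libraries (log2 fold change 0.66, edgeR adjusted p = 0.0280; 0.118 with the pair summed). Ncam1 had 48.5, 48.1 and 49.2 in PBS and 64.3, 64.9 and 71.1 in the AF-PTK@LEV@SPP1-labelled libraries (log2 fold change 0.46, edgeR adjusted p = 0.0139; 0.0800 with the pair summed). Both rose by less than Ret. The TrkC gene Ntrk3 had 3.54, 3.41 and 3.11 normalized CPM in PBS and 7.76, 3.44 and 4.50 in the other group and was not called (log2 fold change 0.64, edgeR adjusted p = 0.208). Nradd, a relative of p75, had 0 counts in all 6, but its span overlaps Nbeal2 on the same strand, so that reads of it may not have been assigned.

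The GFRα co-receptors gave no call in edgeR on the 6 libraries. Gfra1 had 7.09, 17.1 and 19.1 normalized CPM in PBS and 7.47, 7.72 and 6.72 in the AF-PTK@LEV@SPP1-labelled libraries, so that PBS replicate 1 lay with the other group. Its log2 fold change was -0.98 (edgeR adjusted p = 0.108), with the pair summed -0.80 (edgeR adjusted p = 0.277), and by DESeq2 -1.01 and called (adjusted p = 0.0473). Without PBS replicate 1, which leaves 1 distinct PBS sample, it was -1.31 (adjusted p from 0.00413 to 0.294 over 16 alternatives). Gfra2 overlapped (log2 fold change -0.58, edgeR adjusted p = 0.167). Gfra3, the artemin co-receptor, was counted 12, 2 and 2 times in PBS and 23, 11 and 32 times in the other group (log2 fold change 2.07, edgeR adjusted p = 0.0895; 0.236 with the pair summed). Without PBS replicate 1, which again leaves 1 distinct PBS sample, it was 3.28 on the log2 scale (adjusted p from 0.0255 to 0.245 over 15 alternatives). Gfra4 did not pass the filter, with 1, 1 and 2 counts against 10, 6 and 7, a ratio of 5.78 with a 95% Clopper-Pearson interval of 1.97 to 23.0 that covers counting error only and is no test of the groups.

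Adaptor proteins that link Trk and p75 to signaling inside the cell included 2 of 19 called higher and 3 lower, 26.3% beside 18.1% of all genes tested, at a median of -0.02 on the log2 scale. Shc2, an adaptor of Trk receptors, had 4.37, 10.7 and 8.91 normalized CPM in PBS and 1.18, 1.33 and 0.855 in the AF-PTK@LEV@SPP1-labelled libraries. Shc2 had a log2 fold change of -2.83 (edgeR adjusted p = 0.00914; 0.0444 with the pair summed). Ripk2, a kinase that binds p75 and also serves the bacterial sensors NOD1 and NOD2, had 47.9, 38.7 and 43.7 normalized CPM in PBS and 18.7, 20.3 and 17.0 in the other group. Ripk2 had a log2 fold change of -1.22 (edgeR adjusted p = 0.00351; 0.0221 with the pair summed). In both genes every PBS library lay above the other group, and PBS varied more for Shc2.

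The slit receptors Robo1 and Robo2 moved in opposite directions, and each kept its call with the PBS pair summed. Over 16 alternatives Robo1 was called in 16 and Robo2 in 15, the exception being without PBS replicate 2 (edgeR adjusted p = 0.0504). Robo1 had 23.5, 23.9 and 27.2 normalized CPM in PBS and 9.76, 10.1 and 6.78 in the AF-PTK@LEV@SPP1-labelled libraries (log2 fold change -1.48, SE 0.18, edgeR adjusted p = 0.00591; 0.0370 with the pair summed). Robo2 had 16.7, 15.6 and 17.3 normalized CPM in PBS and 36.3, 31.3 and 47.1 in the other group (log2 fold change 1.21, SE 0.16, edgeR adjusted p = 0.00813; 0.0477 with the pair summed). Of the 7 slits and robos 5 were tested, and these 2 were the ones called (40%, beside 18.1% of all genes tested; median log2 fold change -0.16).

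Among 20 semaphorins, all tested, 3 were called higher and 1 lower (20%, beside 18.1% of all genes tested; median log2 fold change 0.39), and none of these calls held with the pair summed. Beside Sema3a, the membrane-bound Sema6c and Sema6a were higher (log2 fold change 1.32 and 1.04, adjusted p = 0.0373 and 0.0383 in edgeR; 0.108 and 0.120 with the pair summed). Sema3f, a secreted repellent that signals through neuropilin 2, was lower, with 25.6, 41.5 and 45.7 normalized CPM in PBS and 14.1, 11.8 and 16.1 in the AF-PTK@LEV@SPP1-labelled libraries (log2 fold change -1.42, edgeR adjusted p = 0.0150; 0.0657 with the pair summed). The 2 class 3 semaphorins called thus differed in direction. Of the 11 neuropilins and plexins, 2 were called higher and 3 lower (45.5%), with a median of -0.14, and none held with the pair summed. Plxnb1, the receptor of semaphorin 4D, was higher (log2 fold change 0.90, edgeR adjusted p = 0.0233; 0.0985 with the pair summed). Nrp1, the neuropilin of semaphorin 3A, is named here after its values were seen. It had 107, 93.1 and 92.4 normalized CPM in PBS and 84.3, 112 and 85.8 in the other group (log2 fold change -0.05, SE 0.14, edgeR adjusted p = 0.825), with overlap. Among A-type plexins, also named after their values were seen, Plxna1 and Plxna2 were called lower (log2 fold change -0.85 and -0.56, adjusted p = 0.0185 and 0.0250 in edgeR). With the pair summed their edgeR adjusted p was 0.0802 and 0.0800. Plxna3 and Plxna4 were not called (log2 fold change 0.54 and -0.27, edgeR adjusted p = 0.112 and 0.602). The span of Plxna1 overlaps Chchd6 on the same strand.

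Of 9 netrins and RGM proteins, with Draxin counted among them, 8 were tested, 2 were called higher and 2 lower (50%, beside 18.1% of all genes tested; median log2 fold change 0.30). Ntn4, a netrin of basement membranes, had 26.3, 39.3 and 39.3 normalized CPM in PBS and 113, 63.2 and 111 in the AF-PTK@LEV@SPP1-labelled libraries (log2 fold change 1.45, edgeR adjusted p = 0.0197; 0.0754 with the pair summed). The membrane-anchored netrin Ntng1 was also higher (log2 fold change 1.34, edgeR adjusted p = 0.0366; 0.121 with the pair summed). Draxin, a secreted repellent that binds netrin 1 and DCC, had 15.6, 11.3 and 12.4 normalized CPM in PBS and 1.94, 4.10 and 1.25 in the other group (log2 fold change -2.43, edgeR adjusted p = 0.0169; 0.0638 with the pair summed). Its span overlaps Mad2l2 and Rpl35a on the other strand. Of 8 netrin and RGM receptors 4 were tested. The call among them (25%) was Dcc, the attractive netrin receptor, also named after its values were seen, which had 5, 2 and 4 counts in PBS and 35, 14 and 25 in the AF-PTK@LEV@SPP1-labelled libraries (log2 fold change 2.72, SE 0.49, edgeR adjusted p = 0.0173; 0.0732 with the pair summed). It passed the filter through the latter group alone, and without the filter the edgeR adjusted p was 0.0215.

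Ephrins and Eph receptors, contact cues between neighboring cells, were called at a share of 14.3% and 18.2% of those tested, beside 18.1% of all genes. Of the ephrins 7 of 8 were tested, 1 was called, lower, and the median log2 fold change was -0.50. The 14 Eph receptors included 11 tested genes, 1 called higher and 1 lower, with a median of -0.13. The latter was Epha3 (log2 fold change -1.17, edgeR adjusted p = 0.0479; 0.140 with the pair summed). Over all 10 lists, 102 of 117 genes were tested, 4 of them through 1 group alone. Of the 102, 17 were called higher and 15 lower (31.4%), beside 18.1% of all genes tested. The median log2 fold change of the 102 was -0.04, beside 0.05 over all genes tested. The lists were chosen with earlier results of these data known, so that these shares, here and for each list, are no test of the pathways. Calls that held with the pair summed included Robo2, higher, and Sorcs2, Shc1, Shc2, Ripk2 and Robo1, lower, where Shc1, a further Trk adaptor, is named after its values were seen.

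**Figure D2:**
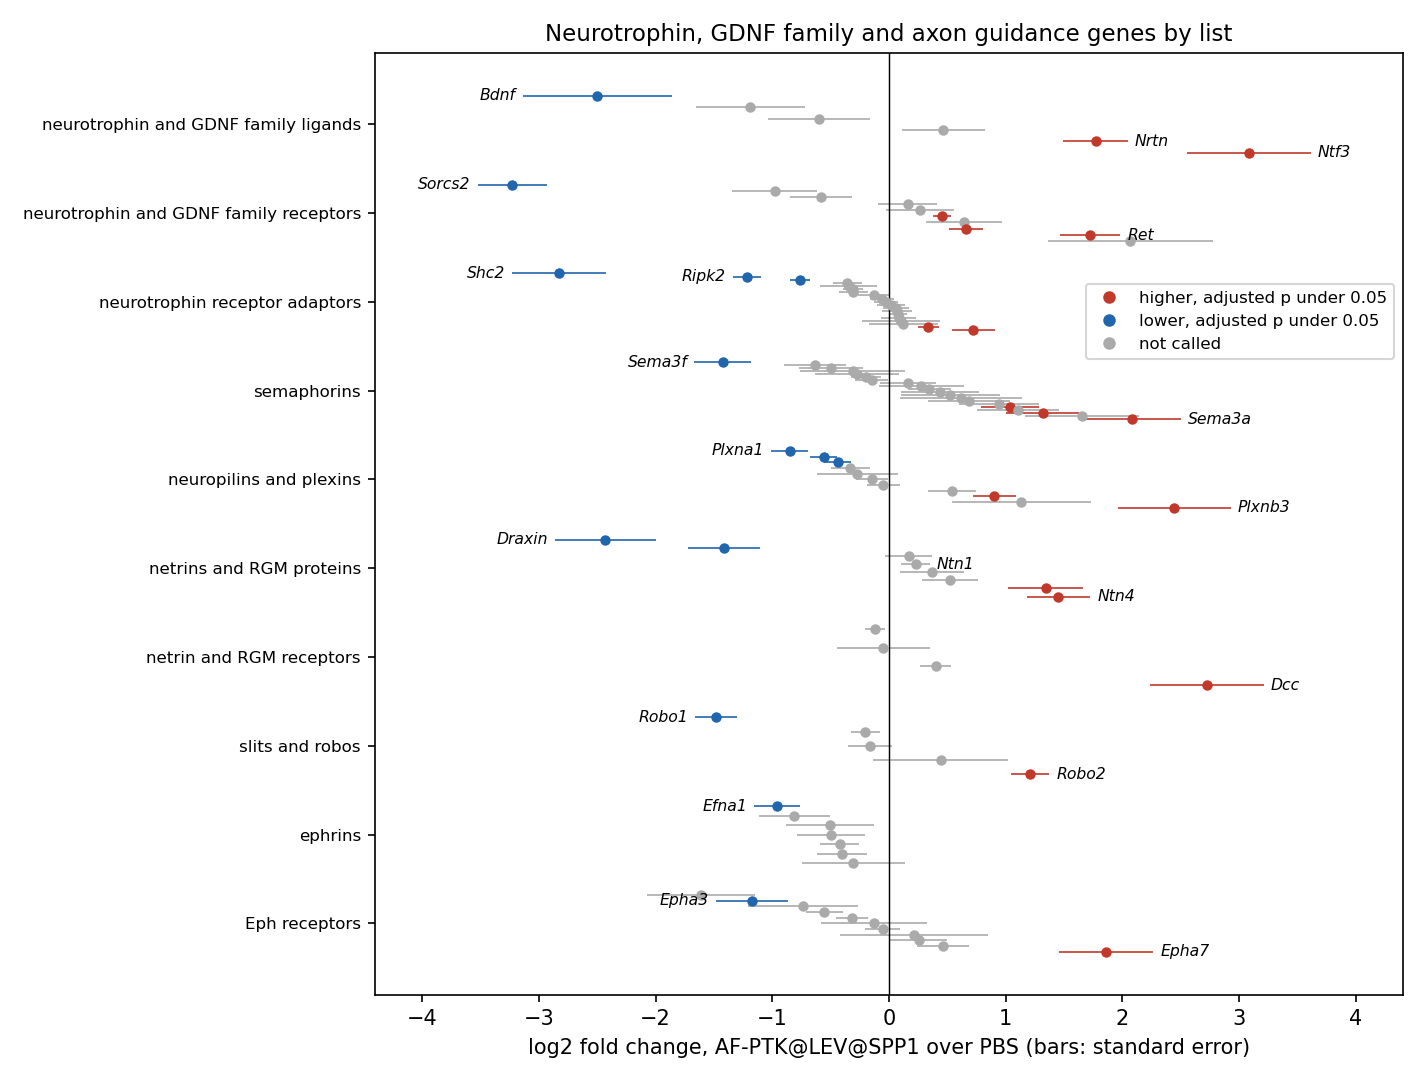
Difference of the AF-PTK@LEV@SPP1-labelled libraries from PBS as log2 fold change (horizontal axis, bars give the standard error) for 101 tested genes in 10 lists (vertical axis), from edgeR's fit of 6 libraries. Red and blue points are genes called higher and lower at an adjusted p under 0.05 and gray points genes not called; both directions occur among the ligands, where Bdnf lies at -2.50 and Nrtn and Ntf3 at 1.77 and 3.08.

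Promoter sequence of Bdnf and Ntf3 is shown because edgeR on the 6 libraries called these 2 neurotrophin genes in opposite directions. Each had passed the filter through the group where it is high, and neither call held with the PBS pair summed. RefSeq's table of rat promoters (build GRCr8) held 4 of the 8 genes, Bdnf, Ntf3, Gdnf and Artn. The 250 bases before the most upstream start lie at chr3:116619383-116619632 on the plus strand for Bdnf and at chr4:160670624-160670873 on the minus strand for Ntf3. Both strands were searched for AP-1 (TGANTCA, in 6.34% of 33469 rat promoters of this length), the cAMP response element (TGACGTCA, 1.59%), the GC box (GGGCGG, 30.5%), the E box (CACGTG, 5.59%) and the TATA box (TATAAA, 12.9%). Capitals mark a match, which is the GC box in Ntf3, and in this window of Bdnf none of these letters occurs. Of the 5 other Bdnf windows in the table, 1 held a TATA box, 1 an AP-1 site with 2 GC boxes, and 3 no match, so that no contrast between the genes follows from the window shown. GC content was 57.6% for Bdnf and 62.8% for Ntf3, beside a median of 51.2% over all promoters.
Bdnf: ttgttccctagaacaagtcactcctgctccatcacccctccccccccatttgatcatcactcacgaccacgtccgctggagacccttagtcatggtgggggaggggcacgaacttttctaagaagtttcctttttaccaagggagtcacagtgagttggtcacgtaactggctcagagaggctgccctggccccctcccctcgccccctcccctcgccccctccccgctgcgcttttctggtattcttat
Ntf3: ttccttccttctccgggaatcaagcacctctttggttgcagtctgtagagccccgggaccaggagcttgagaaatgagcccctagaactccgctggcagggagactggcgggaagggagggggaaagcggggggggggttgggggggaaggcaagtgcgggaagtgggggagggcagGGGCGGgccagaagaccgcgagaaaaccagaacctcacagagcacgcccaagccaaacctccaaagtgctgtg

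Profiles across the 6 libraries, 2 of them near-identical, were compared by the Pearson correlation of log2 CPM, given as a description. Bdnf and Ntf3 ran opposite to each other (r = -0.871), whereas Ntf3 and Sema3a ran together (r = 0.866). The highest value among the 8 genes was that of Ntrk2 and Ntn1 (r = 0.889), both lowest in PBS replicate 1. Among 12175 genes compared, those most like Bdnf were Myct1, Zfp36l1 and Gch1 (r = 0.998, 0.997 and 0.995), those most like Ntf3 were Zmym3, Gpatch8 and Hoxc4 (0.999, 0.998 and 0.998), and those most like Artn were Ttc26, Ext2 and Gas2l1 (0.999, 0.999 and 0.997). For Sema3a they were Rab42, Sod3 and Etv5 (0.999, 0.999 and 0.997), for Ntn1 Lig3, Coro2b and Nf1 (0.997, 0.995 and 0.993), and for Ntrk2 Ppp3ca, Ripor1 and Rnf11 (0.989, 0.986 and 0.984). Gdnf was most like Rnft2, Islr and Pcdhb22 (0.975, 0.970 and 0.968) and Ngfr most like Pik3c3, Ttll12 and Dock11 (0.982, 0.974 and 0.965). With r above 0.95 there were 342 genes for Ntf3, 253 for Bdnf and 180 for Sema3a, but 5 for Ngfr and 12 for Gdnf, so that high values were common for profiles that separate the groups.

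Markers of nerve and of other cells were read beside these genes, since in bulk tissue fewer cells of a type and less RNA per cell cannot be told apart. The 22 transcripts of sensory and sympathetic fibers summed to 28.0, 27.0 and 26.4 normalized CPM in PBS and 35.6, 33.0 and 41.4 in the AF-PTK@LEV@SPP1-labelled libraries. Their most abundant gene was Uchl1, which many cell types express, and Tac1, the gene of substance P, had 0 counts in every library. Of the 9 tested, 6 had a log2 fold change above 0 and 2 (22.2%, beside 18.1% of all genes tested) were called, Tubb3 and Stmn2, both lower (log2 fold change -2.56 and -1.83, adjusted p = 0.0115 and 0.0269 in edgeR; 0.0576 and 0.0877 with the pair summed). Another 3 of those tested, Npy, Trpv1 and P2rx3, were higher without overlap and not called (log2 fold change 1.73, 1.26 and 0.91, adjusted p = 0.0514, 0.0523 and 0.0626 in edgeR). Npy had 3.29, 2.57 and 2.26 normalized CPM in PBS and 3.65, 12.1 and 11.2 in the AF-PTK@LEV@SPP1-labelled libraries. In replicates 2 and 3 of the latter it lay above Uchl1 (7.18 and 10.8). Th, which was not tested, had 93 counts in AF-PTK@LEV@SPP1 replicate 1 and 1 to 26 in the other libraries. Calca, the gene of the nociceptor peptide CGRP, was counted 62, 0 and 0 times in PBS and 12, 19 and 2 times in the other group. The sum was thus higher while the called neuronal genes were lower. Npy was the largest part of the sum in AF-PTK@LEV@SPP1 replicates 2 and 3, so that the sum gives no direction for the fibers as a set. Tubb3, Stmn2, Calca, Npy, Trpv1, P2rx3 and Th are named after their values were seen.

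Nucleus pulposus and notochord markers, with Car3 the most abundant and Noto at 0 counts, summed to 1691, 546 and 537 normalized CPM in PBS and 7169, 3984 and 3511 in the AF-PTK@LEV@SPP1-labelled libraries (9 of 10 genes matched, 2 of 7 tested called higher). Adipocyte markers, led by Adipoq, summed to 296, 56.7 and 55.6 and to 602, 1111 and 464 (2 of 8 called higher). Macrophage markers, led by Lyz2 and with Marco at 0 counts, were lower, at 3186, 2175 and 2152 in PBS and 721, 1990 and 2000 in the other group (4 of 12 called lower). Lyz2 itself overlapped, with 1833, 1267 and 1247 normalized CPM in PBS and 272, 1243 and 1401 in the other group. Of the 12 macrophage genes tested 1 had a log2 fold change above 0, Cd163 (1.30, edgeR adjusted p = 0.0892), named after its values were seen. Endothelial markers, led by Pecam1, were likewise lower, at 558, 673 and 658 against 416, 486 and 485 (4 of 7 called lower). The called shares of these 4 lists were 28.6%, 25%, 33.3% and 57.1%, beside 8.20% of all genes higher and 9.93% lower. The marker lists too were chosen with earlier results of these data known. With the pair summed, 3 of the macrophage calls held and none of the other calls in these 4 lists. The sums of annulus and tendon, chondrocyte, neutrophil, skeletal muscle, mural, osteoblast, epidermis and erythroid markers overlapped between the groups. Of these, the neutrophil, skeletal muscle and erythroid sums were nevertheless highest in AF-PTK@LEV@SPP1 replicates 2 and 3, at 3057 and 4148, 12265 and 3135, and 1657 and 769, against 171 to 1181, 1160 to 1530 and 38.1 to 132 in the other 4 libraries. The part of these cell types in the differences of Bdnf, Ntf3, Sema3a, Ret and Sorcs2 was not tested.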

How the data were processed

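Bulk RNA of 6 disc libraries was measured, 3 of PBS and 3 with the AF-PTK@LEV@SPP1 label. Counts were deposited as whole numbers of reads per rat Ensembl gene, without normalization by the authors. The submitters' processing notes name FastQC, Trimmomatic, HISAT2, featureCounts, DESeq2 and the mouse build mm10, although the identifiers are those of rat. The handling of strand and of shared reads is not given in the sources used here. Control columns carry disc names and were matched to the control records by their numbers.

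The main fit used edgeR 4.0.16 (R 4.3.3) with TMM scaling, filterByExpr at a minimum count of 10, the quasi-likelihood test and Benjamini-Hochberg adjustment over 15042 genes. The common biological coefficient of variation was 0.269. Normalized CPM are counts scaled by the TMM library size, and log2 CPM took 2 as prior count. The code was tested on simulated counts.

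The genes and the 10 pathway and 14 marker lists were chosen with earlier results of these data known. By rule the text names the 8 genes, neurotrophin and GDNF family ligands and receptors, up to 6 other called pathway genes per direction whose mean log2 CPM was 1 or more, the 3 genes most correlated with each of the 8, and per marker list the most abundant gene and those at 0. Some genes of these lists and 1 marker list are left out of the text. Alternatives were DESeq2 1.42.0, voom in limma 3.58.1, other scalings, filters and thresholds, a robust fit, the PBS pair summed, a replicate block and each library left out. Gene lengths were not used here, so that the most abundant gene of a list is the one with the most reads and sums weigh genes by reads.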

Additional observations from a re-analysis of the deposited data

How the results depend on the processing

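Of the 112 counts recomputed under the alternatives, 72 stayed within 1.5 times their value. For single genes, 413 of 506 recomputed log2 fold changes kept their direction and side of the threshold, 88 lost the call, 4 gained it and 1 reversed (Ntrk2, -0.013 without PBS replicate 1, and up to 0.44 with another library left out). With the PBS pair summed, edgeR called 175 genes higher and 400 lower, 0 and 0 of the 8 genes (2 and 1 at an unadjusted p under 0.05), and 1 and 6 pathway genes. In the fit with a replicate block it called 307 and 434, 0 and 1 of the 8 (2 and 1 unadjusted), and 4 and 6 pathway genes. No pairing by replicate number was seen, since same-numbered deviations correlated at -0.33, -0.28 and -0.08 and 0 of 6 libraries correlated best with their own number. With so few libraries a group and the PBS pair near-identical, this check cannot exclude a pairing. An absolute log2 fold change above 1 left 633 and 695 genes. A minimum count of 30, under which 4 of the 8 genes were tested, gave 1 higher and 0 lower among them (1 and 0 unadjusted), and limma-voom gave 0 lower (2 unadjusted). With 1 library left out, all genes called ranged from 169 to 1790 higher and from 393 to 1955 lower, the 8 genes from 0 to 2 higher and from 0 to 1 lower, and pathway genes from 0 to 16 higher and from 6 to 20 lower. The lowest counts came without PBS replicate 2 or 3, and fewer genes were also called without AF-PTK@LEV@SPP1 replicate 2 (727 and 851) or 3 (442 and 630). The highest came without PBS replicate 1, which leaves the near-identical pair, 1 distinct PBS sample that this fit enters as if both were separate replicates. The cause was not tested. Bdnf, Ntf3, Gdnf and Artn had 2 to 39 counts a library, which limits the precision of their folds, and the p-values rest on 5 distinct samples.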
